A study of Mus musculus with 40 samples.

Results

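The BCL2 family sets whether a T cell survives or dies through its mitochondria, and its transcripts were read here in mouse conventional CD4+ T cells, in natural regulatory T cells and in regulatory T cells induced in culture. Rows of the RNA-seq matrix were taken by gene symbol and by nothing else, namely Bcl2, Bcl2l1, Mcl1, Bcl2a1b, Bcl2l11, Bbc3, Pmaip1, Bax, Bak1 and Bid. They are 10 of the 21950 genes in the matrix, and the rule itself used no measured value, although earlier results of these data were known when the members were chosen. All 10 passed the filter on low values, a normalized count of at least 10 in at least 3 libraries, in every fit used below.

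The matrix holds 24 libraries in 8 groups of 3. Conventional T cells (Tconvs, called Tc in the labels) and the regulatory T cells (Tregs) that the study terms thymus-derived (tTregs, called nTreg in the labels) came from spleens of Foxp3-GFP reporter mice aged from 2 to 4 months. The tTregs were sorted as CD4+ Foxp3-GFP+ cells, and no marker of thymic origin was given. Both populations were sequenced resting and activated. Induced Tregs (iTregs) were grown from sorted naive CD4+ Foxp3-GFP- CD62Lhi CD44lo cells of the spleens of 6-week-old Foxp3 reporter mice for 4 days on plate-bound anti-CD3 and anti-CD28 with human TGF-β and IL-2, sorted by the Foxp3 reporter, and rested for 1 day with IL-2. The 4 iTreg groups were resting (Rest), restimulated through CD3 and CD28 (Restim), and restimulated in the presence of an ORAI inhibitor (ORAIinh, the compound CM-4620) or of cyclosporine A (CsA). ORAI proteins form the channel of store-operated calcium entry, and CsA blocks calcineurin, the phosphatase that calcium uses to bring NFAT into the nucleus. The labels of the inhibitor groups do not themselves state the restimulation, which was taken from the methods, and the length of activation of these libraries was not given in the sources used here. The protocol in the labels opens with a sort of live cells on propidium iodide, which the methods give for the chromatin assay, so it is not certain that it holds for these RNA libraries. No source said whether the replicates were separate mice or cultures, and p-values therefore measure only the spread between these libraries, which may be technical.

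In this pathway the survival proteins BCL2, BCL-XL (gene Bcl2l1), MCL1 and A1 (gene Bcl2a1b) hold the pore formers BAX and BAK (gene Bak1) in check on the outer mitochondrial membrane. BH3-only proteins, here BIM (gene Bcl2l11), PUMA (gene Bbc3), NOXA (gene Pmaip1) and BID, bind the survival proteins or the pore formers and tip the balance toward release of cytochrome c and activation of caspases. T cells are known to switch from reliance on BCL2 at rest to BCL-XL and A1 after antigen receptor and CD28 signals, BIM is known for the removal of activated and self-reactive T cells, and Tregs are known to need MCL1 and to be held in number by BIM.

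The genes lie apart in the genome. In GENCODE annotation of GRCm38, Bcl2 spans chr1:106538178-106714274 (minus strand), Bcl2l11 chr2:128126038-128162547 (plus), Bcl2l1 chr2:152780668-152831728 (minus), Mcl1 chr3:95658788-95663176 (plus), Bid chr6:120891930-120916853 (minus), Bbc3 chr7:16308393-16318205 (plus), Bax chr7:45461697-45466898 (minus), Bcl2a1b chr9:89199209-89207827 (plus) and Bak1 chr17:27019810-27029009 (minus). The position of Pmaip1 is given with its values.

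Of the members, Bcl2a1b is the one whose reads are hardest to place, because mice carry near-identical copies of the A1 gene on chromosome 9. The first 120 coding bases of 3 of them are shown because they hold most of the differences between the copies, and capitals mark the 7 positions in this stretch at which the copies are not all alike. They lie in exons at chr9:89199360-89199479 (plus strand, Bcl2a1b), chr9:88731600-88731719 (minus, Bcl2a1d) and chr9:88957051-88957170 (plus, Bcl2a1a) of GRCm38.
Bcl2a1b: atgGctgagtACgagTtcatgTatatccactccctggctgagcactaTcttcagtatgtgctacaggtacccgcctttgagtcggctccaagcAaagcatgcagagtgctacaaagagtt
Bcl2a1d: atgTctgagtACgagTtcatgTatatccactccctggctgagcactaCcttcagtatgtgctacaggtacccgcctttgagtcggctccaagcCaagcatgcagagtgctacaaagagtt
Bcl2a1a: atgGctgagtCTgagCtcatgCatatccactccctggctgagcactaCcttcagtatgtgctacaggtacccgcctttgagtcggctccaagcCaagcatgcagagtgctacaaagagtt
Over all 516 coding bases 12 positions differed among the 3 copies, and Bcl2a1b was 98.8% identical to Bcl2a1d and 97.9% identical to Bcl2a1a. Of all windows of 50 bases in the Bcl2a1b transcript (817 bases), 57.6% occurred unchanged in another copy, against 31.1% of windows of 100 bases. The reads were assigned by RSEM, which shares out ambiguous reads by estimate, so the split between copies is uncertain. In the matrix Bcl2a1a and Bcl2a1c stood at or near 0 in every library, whereas Bcl2a1d held a mean of 102 normalized counts in resting Tconvs and 16.3 in resting iTregs. The value of Bcl2a1b is given below as deposited, and the sum of the copies was fitted in its place as an alternative.

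Stretches of sequence just before the transcription start are shown for the 4 members that the results turn on most. The DNA is RefSeq sequence of GRCm38.p6, read 5′ to 3′ on the gene's strand and ending at the last base before the start, except for Bcl2a1b, where it stops earlier to stay outside an annotated exon. Capitals mark the NFAT core letters GGAAA and the AP-1 letters TGANTCA on either strand.
Bcl2 (chr1:106714291-106714540, minus strand): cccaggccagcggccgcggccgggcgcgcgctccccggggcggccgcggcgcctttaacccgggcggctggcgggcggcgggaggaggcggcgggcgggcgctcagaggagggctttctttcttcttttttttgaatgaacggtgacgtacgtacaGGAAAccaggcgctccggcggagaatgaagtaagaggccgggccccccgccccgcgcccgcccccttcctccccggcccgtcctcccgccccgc
Bcl2l1 (chr2:152831729-152831978, minus strand): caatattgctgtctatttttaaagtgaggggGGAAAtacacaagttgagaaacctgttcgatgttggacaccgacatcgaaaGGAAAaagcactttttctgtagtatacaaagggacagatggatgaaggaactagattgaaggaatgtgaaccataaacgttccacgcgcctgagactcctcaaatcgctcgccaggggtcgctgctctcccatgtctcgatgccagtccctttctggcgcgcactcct
Bcl2a1b (chr9:89199023-89199208, plus strand): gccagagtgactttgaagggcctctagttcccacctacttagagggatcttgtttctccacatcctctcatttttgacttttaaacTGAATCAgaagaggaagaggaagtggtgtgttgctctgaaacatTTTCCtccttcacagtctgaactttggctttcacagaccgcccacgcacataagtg
Bcl2l11 (chr2:128125788-128126037, plus strand): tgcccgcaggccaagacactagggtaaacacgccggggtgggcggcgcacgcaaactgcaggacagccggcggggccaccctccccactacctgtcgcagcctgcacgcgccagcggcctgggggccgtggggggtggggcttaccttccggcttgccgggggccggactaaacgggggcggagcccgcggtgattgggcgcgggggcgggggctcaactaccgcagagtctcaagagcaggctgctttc
GGAAA occurred in the Bcl2 window 1 time, in the Bcl2l1 window 2 times and in the Bcl2a1b window 1 time, and it was not in the Bcl2l11 window. The Bcl2a1b window also held the AP-1 letters. Across the 32841 promoter windows of 250 bases in the RefSeq table, 55.6% held GGAAA and 6.75% held TGANTCA, so the NFAT letters are common and a match is only a description of the window. Windows were counted for 9 of the members, with Pmaip1 left out, which gave 14 windows in all, and 10 of these held GGAAA. Some of the counted Bcl2l1 windows and the Bak1 window lay wholly inside annotated exons of the gene itself.

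Each library held between 5256800 and 15685234 recovered reads (median 10801942), with between 12581 and 13313 genes above 0. The tTreg libraries were shallow (from 5256800 to 9893053 reads, against at least 9808711 in all others), and pairs of tTreg replicates differed from each other by more than most other replicate pairs did. Among the members Bbc3 had the fewest reads, from 18 to 59 in a library, so its values carry the largest counting error. Markers were read to check the labels. The T cell markers Cd3e, Cd3g, Cd4 and Lck were high in all groups, and the summed Treg markers (Foxp3, Il2ra, Ctla4, Ikzf2, Tnfrsf18 and Lrrc32) ran from 1572 to 1736 normalized counts in resting Tconvs, from 10115 to 11003 in activated Tconvs, from 37727 to 45261 in tTregs and from 19776 to 26116 in iTregs. In activated Tconvs most of the sum was Tnfrsf18 (mean 5166) and Il2ra (4351), with Foxp3 at 33.8. From resting to restimulated iTregs the mean of Foxp3 fell from 1280 to 710 and that of Lrrc32 from 1471 to 766. The other Treg markers did not pass the thresholds given below in that comparison. Summed B cell markers ran from 15.99 to 44.3 in Tconvs and iTregs and from 89.0 to 136 in tTregs, although Ms4a1 was at 0 in all libraries. Summed NK cell markers were at 0 in tTregs and iTregs, and ran from 19.3 to 30.9 in resting Tconvs. The 13 mitochondrial genes, whose share can vary with RNA quality, took from 3.95% to 4.22% of the normalized counts in resting Tconvs, from 3.07% to 3.32% in activated Tconvs, from 1.80% to 2.08% in resting tTregs, from 1.13% to 1.72% in activated tTregs and from 1.56% to 2.63% in iTregs, so the share moved with the groups, and its part in the differences below was not tested.

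Levels are given as the deposited normalized counts, as mean ± SD of 3 libraries. Differences are log2 fold changes of the normalized count plus 1 with their standard error (SE), tested by limma across all genes with Benjamini-Hochberg adjustment. A gene was called changed at an adjusted p under 0.05 with an absolute log2 fold change over 0.5, the thresholds of the study.

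**Figure D1:**
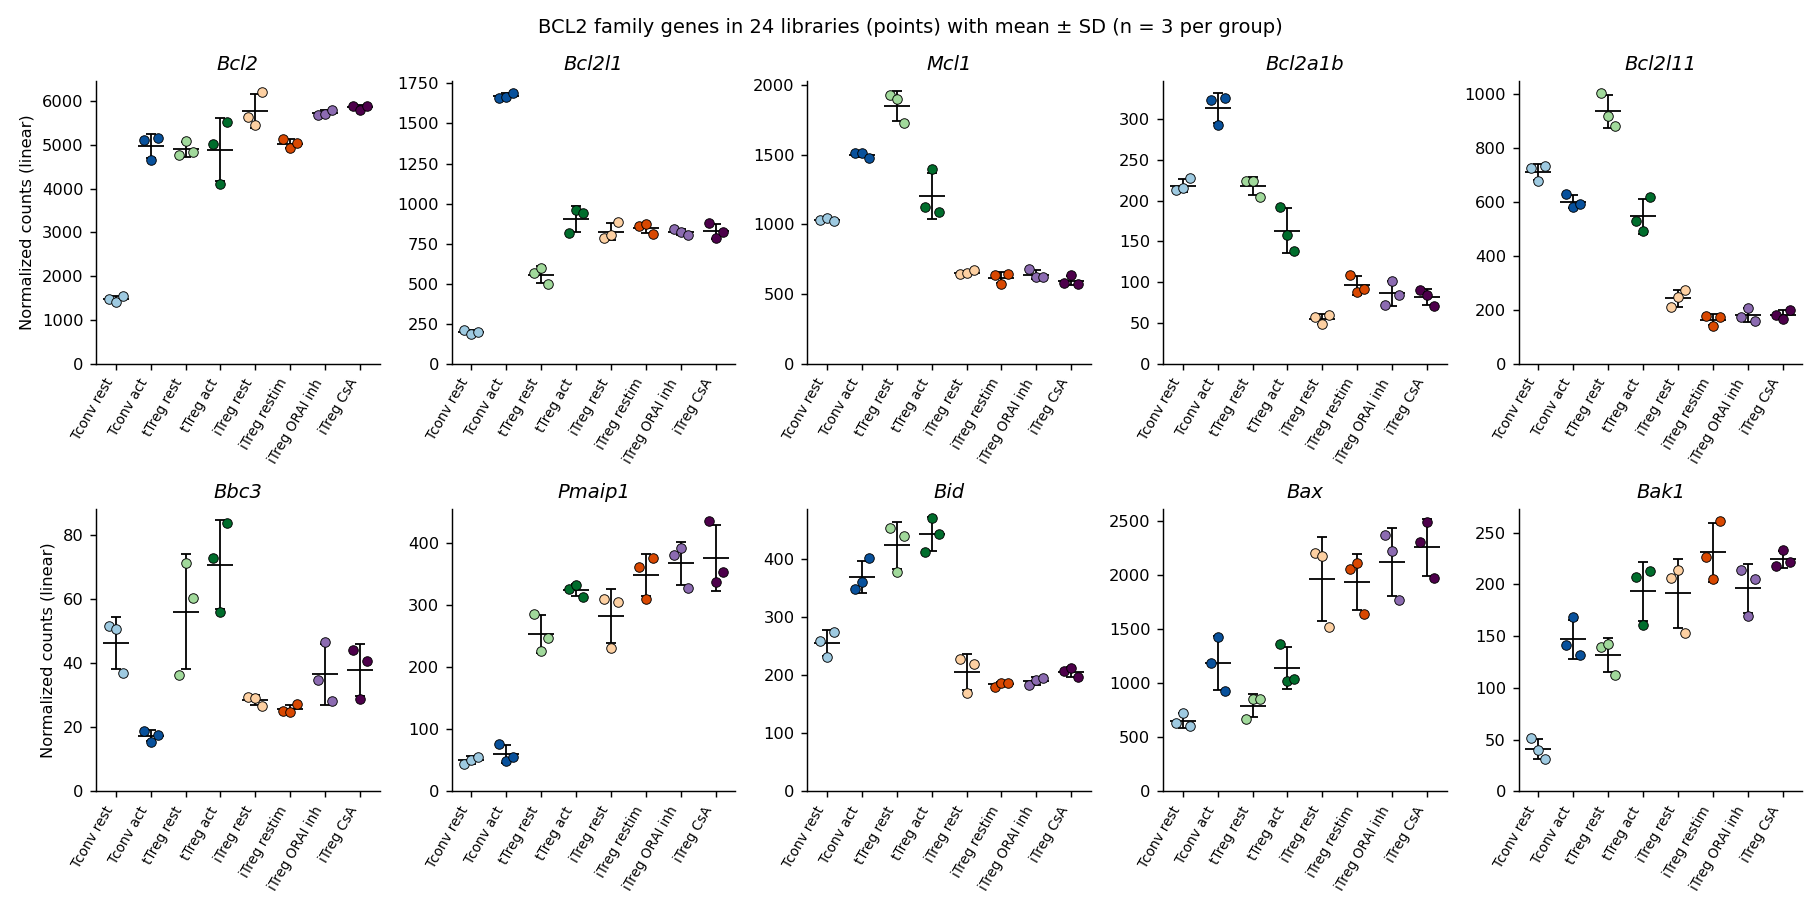
Normalized counts (linear axes starting at 0) of the 10 BCL2 family genes in each of the 24 libraries (points), with mean and SD of the 3 libraries of each group (bars). Bcl2 was low only in resting Tconvs, Bcl2l1 was highest in activated Tconvs, and Bcl2l11, Mcl1 and Bcl2a1b were lower in all 4 iTreg groups than in the 4 Tconv and tTreg groups.

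The first comparison asked how activation changed the family in Tconvs. Activated Tconvs held far more transcript of the survival genes Bcl2l1 and Bcl2 than resting ones, and more of the pore former gene Bak1. Mcl1, Bcl2a1b, Bax and Bid rose by less, Bbc3 fell, and Bcl2l11 and Pmaip1 did not pass the thresholds. Of the 10 members 8 changed, 7 higher and 1 lower, where 50.2% of all genes tested changed (5774 of 11495). The median log2 fold change of the members was 0.54, against -0.04 over all genes.

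Bcl2l1, which encodes BCL-XL, stood at 209, 184 and 196 normalized counts in the resting Tconv libraries (196 ± 12.5). It stood at 1657, 1665 and 1689.6 in the activated ones (1671 ± 17.1). The groups were far apart, with a log2 fold change of 3.09 (SE 0.093, adjusted p = 1.48e-12), or 8.49-fold. Bcl2 itself read 1471, 1417 and 1547 at rest and 5113, 4653 and 5162 after activation. All activated libraries lay above all resting ones, at a log2 fold change of 1.75 (SE 0.097, adjusted p = 9.76e-10). As these are bulk libraries, a change in the number of cells that hold a transcript and a change in the transcript per cell cannot be told apart, here or below.

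Mcl1 and Bcl2a1b, the other survival genes, moved less. Mcl1 read 1034, 1044 and 1023 in resting and 1509, 1515 and 1479 in activated Tconvs, a log2 fold change of 0.54 (SE 0.086, adjusted p = 7.02e-05). Bcl2a1b read 213, 216 and 227 at rest and 323, 292 and 326 after activation, at 0.52 (SE 0.129, adjusted p = 0.00272). In neither gene did the groups overlap, but both folds sat close to the threshold of 0.5. The calls ended for Mcl1 after quantile normalization (0.49) and for Bcl2a1b without the first replicates (0.48) or with the A1 copies summed (0.46).

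Among the BH3-only genes the direction was not shared. Bbc3, the gene of PUMA, read 51.4, 50.6 and 36.9 in resting Tconvs and only 18.9, 15.5 and 17.7 in activated ones, the lowest level of any group. It fell by 1.35 on the log2 scale (SE 0.244, adjusted p = 0.000208). Bid, which links death receptors to mitochondria, read 259, 231 and 275 at rest and 347, 359.7 and 400.5 after activation, at 0.53 (SE 0.123, adjusted p = 0.0016), and this call ended without the second replicates (0.48). Bcl2l11, the gene of BIM, had non-overlapping libraries (723, 675 and 730.3 against 628, 579.6 and 592), but at -0.24 it missed both thresholds (adjusted p = 0.062). Pmaip1, the gene of NOXA, overlapped between the groups, with 44.2, 50.6 and 56.2 at rest and 76.3, 48.3 and 55.9 after activation (95% interval of the log2 fold change -0.13 to 0.60).

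Both pore former genes were higher in activated Tconvs. Bak1 read 51.4, 40.3 and 31.6 at rest and 141, 168 and 132 after activation, a log2 fold change of 1.83 (SE 0.193, adjusted p = 1.05e-06). Bax read 635, 731 and 603 at rest and 1191, 1433 and 934 after activation, at 0.84 (SE 0.177, adjusted p = 0.000803). The activated libraries were wide apart in Bax, yet the groups did not overlap. Over the same comparison the summed proliferation markers (Mki67, Top2a, Ccna2 and Cdk1) went from between 98.5 and 112 normalized counts to between 1276 and 1295, and the summed NK cell markers from between 19.3 and 30.9 to between 0.898 and 3.54 with Klra4 at 0 in both groups, and their part in these differences was not tested.

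The second comparison asked the same of tTregs. Their survival genes barely followed the pattern of Tconvs, since Bcl2l1 rose by less, Mcl1 fell, and Bcl2 was already high at rest. In all 5 of 10 members changed, 3 higher and 2 lower, where 21.9% of all genes tested changed (2517 of 11495). Bcl2l1 read 569, 599 and 499 in resting tTregs and 813, 961 and 941 in activated ones, a log2 fold change of 0.70 (SE 0.093, adjusted p = 6.96e-05). Bcl2 read 4771, 5098 and 4837 at rest and 5018, 4112 and 5531 after activation. These values overlapped, and the 95% interval of the Bcl2 log2 fold change ran from -0.22 to 0.19.

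Mcl1 and Bcl2l11 fell in tTregs. Mcl1, the survival gene that Tregs are known to need, read 1927, 1901 and 1730.1 at rest and 1126, 1396 and 1092 after activation, and it fell by 0.63 on the log2 scale (SE 0.086, adjusted p = 9.53e-05). Bcl2l11 read 1003, 916 and 882 at rest and 529, 491 and 618 after activation, and fell by 0.78 (SE 0.107, adjusted p = 9.53e-05). In both genes each activated library lay below each resting one. Bcl2a1b read 224, 224 and 205 at rest and 193, 158 and 138 after activation, also without overlap, but at -0.43 it did not pass the fold threshold (adjusted p = 0.0188), which it did without the first replicates (-0.54, adjusted p = 0.0471).

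The pore former genes were called higher in activated tTregs on narrow margins. Bax read 669, 856 and 854 at rest and 1367, 1024 and 1044 after activation (log2 fold change 0.53, adjusted p = 0.0328), and Bak1 read 139.7, 143 and 113 and 207, 161 and 213 (0.55, adjusted p = 0.0398). Leaving out the first replicates gave 0.27 for Bax (adjusted p = 0.38), and leaving out the first, the second or the third gave adjusted p of 0.146, 0.0535 and 0.17 for Bak1. Both calls also ended when the 2 tTreg groups were fitted alone, and the Bak1 call without the filter on low values, so neither is firm. Bbc3, Pmaip1 and Bid did not pass, and Pmaip1, with 287, 227 and 248 at rest and 327, 333 and 314 after activation, had a 95% interval of -0.01 to 0.73.

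The difference between the responses was itself tested, as the log2 fold change on activation in tTregs minus that in Tconvs. The responses differed in 7 of 10 members, 1 upward and 6 downward, where 34.7% of all genes tested did (3991 of 11495). Bcl2l1 differed by -2.38 (SE 0.131, adjusted p = 4.45e-09) and Bcl2 by -1.76 (SE 0.137, adjusted p = 1.73e-07), so that the response of both was smaller in tTregs. Mcl1 (-1.17) and Bcl2a1b (-0.95) rose in Tconvs and had lower means after activation in tTregs, where Mcl1 alone of them was called. Bak1 (-1.28) and Bcl2l11 (-0.54) differed downward too, whereas Bbc3, whose fall was called in Tconvs and not in tTregs, differed upward by 1.72 (adjusted p = 0.00118). Pmaip1, Bax and Bid did not pass by limma, with 95% intervals of -0.39 to 0.64, -0.85 to 0.22 and -0.84 to -0.10. Bid (-0.47, adjusted p = 0.0455) missed the fold only, and it was called by DESeq2 (-0.51, adjusted p = 0.0222), with size factors of the libraries fitted (-0.51), after quantile normalization (-0.53) and without the second replicates (-0.54). The Bcl2l11 difference was lost without the first (-0.44) or the second replicates (-0.46), and the Bak1 difference without the second (-0.99, adjusted p = 0.0591).

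**Figure D2:**
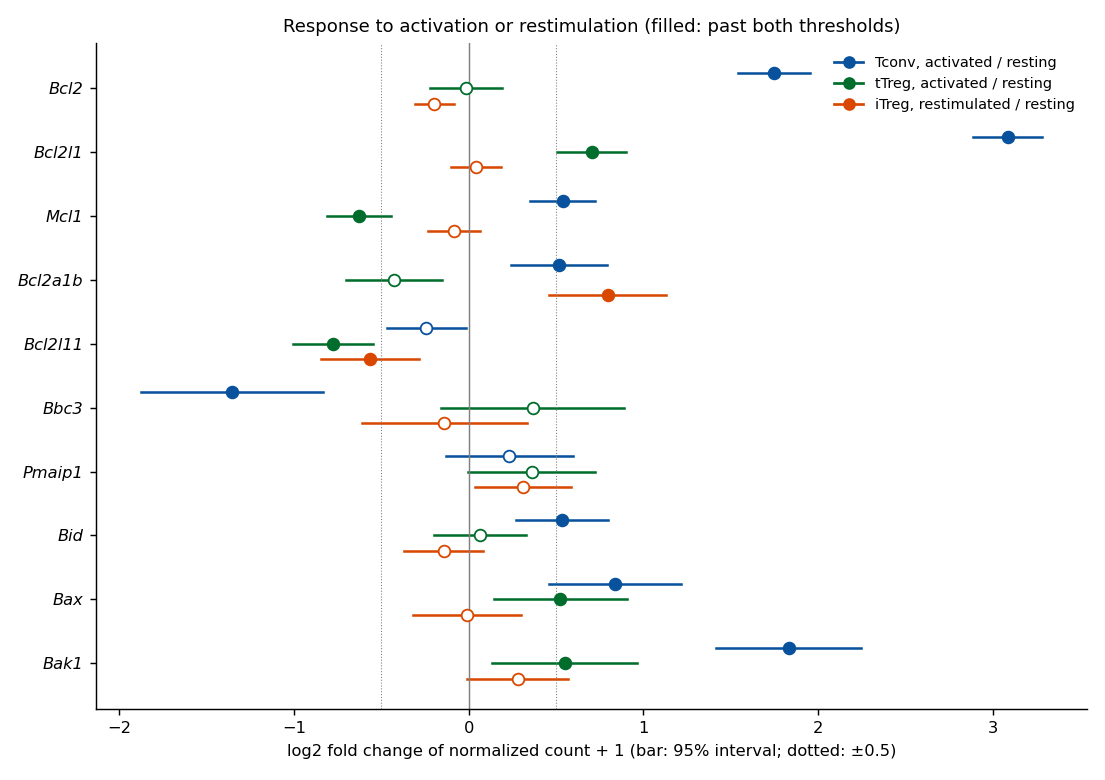
Log2 fold changes on activation of Tconvs, activation of tTregs and restimulation of iTregs for the 10 genes, with 95% confidence intervals (lines), filled points being genes called changed. Bcl2l1 sits at 3.09 in Tconvs, 0.70 in tTregs and 0.04 in iTregs.

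The resting populations were then compared to ask where the family stood before any stimulus. Resting tTregs held more Pmaip1, Bcl2, Bak1, Bcl2l1, Mcl1 and Bid than resting Tconvs, and no member was called lower. That made 6 of 10 members, where 38.6% of all genes tested changed (4441 of 11495). Pmaip1, which spans chr18:66458533-66465565 (plus strand), had the largest difference, 287, 227 and 248 normalized counts in resting tTregs and 44.2, 50.6 and 56.2 in resting Tconvs, or a log2 fold change of 2.31 (SE 0.171, adjusted p = 3.39e-08). Bcl2 was 3.31-fold, Bak1 3.19-fold, Bcl2l1 2.82-fold, Mcl1 1.79-fold and Bid 1.66-fold higher in resting tTregs, with no overlap of libraries in any of them. Bcl2a1b was nearly level (218 ± 11.1 against 219 ± 7.65, 95% interval -0.28 to 0.27), and Bcl2l11, at 0.39, passed the p (adjusted p = 0.00633) but not the fold. Summed B cell markers ran from 128 to 136 in resting tTregs and from 20.2 to 31.9 in resting Tconvs with Ms4a1 at 0 in both. The mitochondrial share was lower in resting tTregs (from 1.80% to 2.08%, against 3.95% to 4.22%), and the part of either in the difference was not tested.

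The activated populations were compared in the same way. Changes were called in 4 of 10 members between activated tTregs and activated Tconvs, 2 higher and 2 lower, where 48.2% of all genes tested changed (5535 of 11495). Pmaip1 stayed apart, at 327, 333 and 314 against 76.3, 48.3 and 55.9 (5.42-fold, adjusted p = 2.03e-08), and Bbc3 was 3.87-fold higher in activated tTregs (72.7, 55.8 and 83.6 against 18.9, 15.5 and 17.7). Bcl2l1 and Bcl2a1b were lower in activated tTregs, by 0.89 and 0.95 on the log2 scale. Bcl2 was level, with 4887 ± 719 in activated tTregs and 4976 ± 281 in activated Tconvs and a 95% interval of -0.24 to 0.17.

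Resting iTregs were compared with resting Tconvs, the lineage from which they were induced. They held more of 2 survival genes, Bcl2 and Bcl2l1, and less of the other 2, Mcl1 and Bcl2a1b. They held more of both pore former genes and of Pmaip1, and far less Bcl2l11. Changes were called in 9 of 10 members, 5 higher and 4 lower, but 63.6% of all genes tested changed as well (7314 of 11495), and the median absolute log2 fold change was 1.77 over the members and 0.83 over all genes. Bcl2l11 read 209.7, 246 and 272 in resting iTregs, against 723, 675 and 730.3 in resting Tconvs, and was lower by 1.55 on the log2 scale (SE 0.107, adjusted p = 4.56e-09). Bcl2a1b read 56.9, 48.4 and 59.2 against 213, 216 and 227, a log2 fold change of -1.98 (SE 0.129, adjusted p = 2.4e-09), and -2.17 with the A1 copies summed. In both genes the highest iTreg library lay far below the lowest Tconv library.

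The genes that were higher in resting iTregs were as clearly separated. Pmaip1 read 311, 232 and 306 against 44.2, 50.6 and 56.2 in resting Tconvs, or 5.51-fold (adjusted p = 5.02e-09). Bak1 read 207, 214 and 153 against 51.4, 40.3 and 31.6, or 4.60-fold. Bax read 2207, 2177 and 1522 against 635, 731 and 603, or 2.97-fold. Bcl2l1 (824 ± 54.1) was 4.19-fold and Bcl2 (5778 ± 394) 3.90-fold higher. Mcl1 read 644, 649 and 671 against 1034, 1044 and 1023 and was lower by 0.66 on the log2 scale (adjusted p = 5.88e-06). Bid did not pass the fold (-0.32), and the lower call of Bbc3 (-0.67, adjusted p = 0.0224) was lost without the first (-0.61), the second (-0.62) or the third replicates (-0.78), with adjusted p from 0.0564 to 0.0894. Summed proliferation markers ran from 22147 to 22694 in resting iTregs and from 98.5 to 112 in resting Tconvs, and their part in these differences was not tested. The iTregs also came from younger mice than the Tconvs and tTregs, so age and population cannot be told apart, here or below.

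Against resting tTregs, the natural counterpart, the same iTreg libraries shared the high Bcl2 and Pmaip1 but not the high Mcl1 and Bcl2l11. Of the 10 members 8 changed, 3 higher and 5 lower, where 63.4% of all genes tested changed (7293 of 11495). Summed proliferation markers ran from 22147 to 22694 in resting iTregs and from 252 to 317 in resting tTregs, and their part was not tested. Bcl2l11 was among the genes far lower in iTregs, 243 ± 31.1 against 934 ± 62.7, or -1.95 (SE 0.107, adjusted p = 4.48e-10). Bcl2a1b was lower by 1.97, Mcl1 by 1.50, Bid by 1.05 and Bbc3 by 0.90 on the log2 scale, and Bax was 2.46-fold higher (adjusted p = 9.44e-06). Pmaip1 overlapped between iTregs and tTregs (311, 232 and 306 against 287, 227 and 248, 95% interval -0.22 to 0.51), and Bcl2, at 0.24, stayed under the fold threshold. The calls on Bcl2l1 (0.57) and Bak1 (0.53) were near the fold threshold and ended after quantile normalization (0.50 and 0.47), Bcl2l1 also without the third replicates (0.44), Bak1 without the first (0.51, adjusted p = 0.086) or the second (0.50, adjusted p = 0.102), and Bbc3 without the second (-0.72) or the third (-0.77).

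Set beside activated Tconvs, resting iTregs had the same order of Bcl2 but lacked the high Bcl2l1 of activation. Of the 10 members 8 changed, 3 higher and 5 lower, where 41.6% of all genes tested changed (4784 of 11495, 2634 higher and 2150 lower, or 2095 higher and 2835 lower after quantile normalization). Bcl2l1 was at 824 ± 54.1 in resting iTregs and 1671 ± 17.1 in activated Tconvs, a log2 fold change of -1.02 (SE 0.093, adjusted p = 3.26e-07). Bcl2a1b (-2.50), Bcl2l11 (-1.31), Mcl1 (-1.20) and Bid (-0.85) were lower in iTregs as well. Pmaip1 was higher by 2.23 (adjusted p = 5.3e-08) and Bax by 0.73 (adjusted p = 0.00269). Bbc3, at 0.68 (adjusted p = 0.0275), lost its call without any one of the replicates (0.59 to 0.75), by DESeq2 (adjusted p = 0.0708) and after quantile normalization, where it stood at 0.13. Bcl2 and Bak1 did not pass, with 95% intervals of 0.01 to 0.42 and -0.04 to 0.78. Summed proliferation markers, from 22147 to 22694 in resting iTregs, ran from 1276 to 1295 in activated Tconvs, and their part was not tested.

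**Figure D3:**
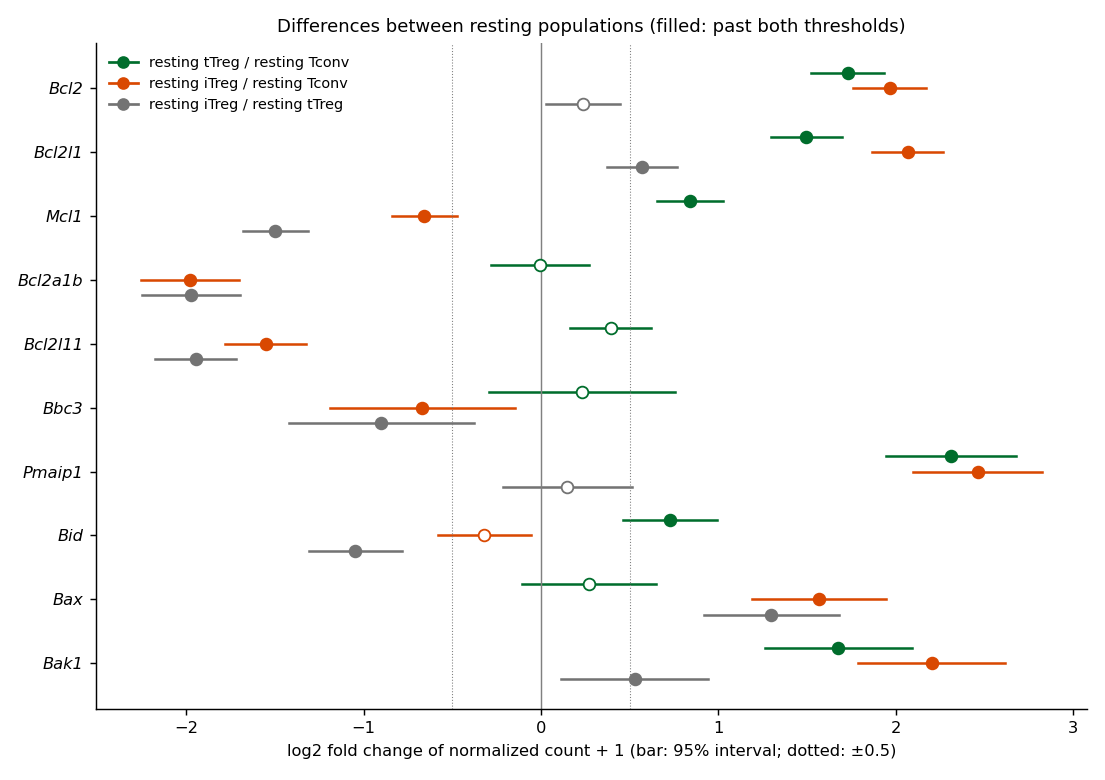
Log2 fold changes of the 10 genes between the resting populations, with 95% confidence intervals (lines) and filled points for genes called changed. Pmaip1 and Bcl2 lie to the right for both Treg kinds against Tconvs, and Bcl2l11 lies at 0.39 for tTregs and -1.55 for iTregs.

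Restimulation of iTregs is the event after which the study follows their loss of identity. Bcl2a1b rose and Bcl2l11 fell, and no other member passed both thresholds. That made 2 of 10 members, where 12.8% of all genes tested changed (1425 of 11105), so the count does not set the members apart from genes at large. edgeR and DESeq2 on the recovered reads each called 2 members as well. Bcl2a1b read 56.9, 48.4 and 59.2 in resting and 109, 87.4 and 91.7 in restimulated iTregs, a log2 fold change of 0.80 (SE 0.158, adjusted p = 0.00153). The libraries did not overlap, and the sum of the A1 copies gave 0.77 (adjusted p = 0.00112). Even so, restimulated iTregs held far less Bcl2a1b than resting Tconvs did (96.0 ± 11.3 against 219 ± 7.65, a difference that was not tested).

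Bcl2l11 fell further from its low resting level. It read 209.7, 246 and 272 in resting and 176, 141 and 173 in restimulated iTregs, a log2 fold change of -0.57 (SE 0.132, adjusted p = 0.00474). All restimulated libraries lay below all resting ones, but the call was lost without the second replicates (-0.45, adjusted p = 0.0667). Bcl2 read 5648, 5466 and 6221 at rest and 5129.6, 4931 and 5034 after restimulation, a small drop that passed the p but not the fold (95% interval -0.31 to -0.09, adjusted p = 0.00981).

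The gene with the largest rise in Tconvs was not called here. Bcl2l1 read 785, 802 and 886 in resting and 859, 872 and 809 in restimulated iTregs, and its 95% interval ran from -0.10 to 0.18. Mcl1 (654 ± 14.3 and 618 ± 39.4, interval -0.24 to 0.07) and Bax (1969 ± 387 and 1939.7 ± 258, interval -0.32 to 0.30) were close to level too. Pmaip1 (0.31, adjusted p = 0.0837) and Bak1 (0.28, adjusted p = 0.135) had higher means after restimulation with overlapping libraries.

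The response of iTregs was set against those of the natural populations in a fit of all 24 libraries. Against the response of Tconvs, 7 of 10 members differed, 1 upward and 6 downward, where 44.2% of all genes tested did (5188 of 11725). Bcl2l1 differed by -3.05 (SE 0.113, adjusted p = 4.29e-15), Bcl2 by -1.95 (adjusted p = 6.07e-12) and Bak1 by -1.55 (adjusted p = 1.52e-05). Bax (-0.85), Bid (-0.68) and Mcl1 (-0.62) also differed downward, and Bbc3 differed upward by 1.21. The rise of Bcl2a1b did not differ in size between iTregs and Tconvs at this precision (95% interval of the difference -0.14 to 0.69), nor did the log2 fold change of Bcl2l11 (95% interval -0.67 to 0.02). The Bax difference was lost without the first (-0.77, adjusted p = 0.0554) or the second replicates (-0.76, adjusted p = 0.0658).

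Against the response of tTregs, 3 of 10 members differed, 2 upward and 1 downward, where 21.3% of all genes tested did (2501 of 11725). Bcl2a1b rose in iTregs and had a lower mean after activation in tTregs that was not called, a difference of 1.22 (SE 0.198, adjusted p = 9.55e-05). Bcl2l1 was called higher in tTregs and not in iTregs (-0.66), and Mcl1 was called lower in tTregs and not in iTregs (0.54). The Bcl2l1 difference was lost without the third replicates (-0.47) and the Mcl1 difference without the first (0.43). Bax, at -0.54 (adjusted p = 0.106), was instead called without the third replicates (-0.71).

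At the stimulated end, restimulated iTregs differed from activated Tconvs in 8 of 10 members, 3 higher and 5 lower, where 44.3% of all genes tested changed (5200 of 11725, 2856 higher and 2344 lower, or 2345 higher and 3023 lower after quantile normalization). Pmaip1 was 5.81-fold higher in restimulated iTregs (362, 310.4 and 376 against 76.3, 48.3 and 55.9), while Bcl2l11 was lower by 1.88, Bcl2a1b by 1.70, Mcl1 by 1.28, Bid by 1.00 and Bcl2l1 by 0.98 on the log2 scale. Bax (0.72) and Bak1 (0.65) were higher, Bak1 at only 0.48 and without a call when the third replicates were left out. Against activated tTregs 6 of 10 members changed, 1 higher and 5 lower, where 59.3% of all genes tested changed (6952 of 11725). Bcl2l11 (-1.74), Bbc3 (-1.41), Bid (-1.26), Mcl1 (-0.95) and Bcl2a1b (-0.75) were lower in restimulated iTregs, and Bax was higher (0.76). Summed proliferation markers ran from 19089 to 19924 in restimulated iTregs. They ran from 1276 to 1295 in activated Tconvs and from 921 to 997 in activated tTregs, and their part was not tested.

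Inhibitors of the calcium pathway were used in the study to ask which changes of restimulated iTregs need calcium and NFAT. No member was called changed against restimulated iTregs with the ORAI inhibitor or with CsA. So few genes were called at large that a count of 0 of 10 does not set the members apart from other genes. The ORAI inhibitor gave 0 of 10 members, where 3.30% of all genes tested changed (366 of 11105), with 1 member at an unadjusted p under 0.05 and 0 by edgeR and by DESeq2. CsA gave 0 of 10, where 2.92% of all genes tested changed (324 of 11105), with 2 members at an unadjusted p under 0.05 and 0 by edgeR and by DESeq2. In Bcl2a1b, the member that restimulation raised, the libraries read 72.4, 102 and 84.2 with the ORAI inhibitor and 89.9, 84.2 and 71.2 with CsA, next to 109, 87.4 and 91.7 with neither. The sets overlapped, and the 95% intervals of the log2 fold change were -0.50 to 0.18 for the ORAI inhibitor and -0.57 to 0.11 for CsA, which leaves room for the whole rise to be kept or for a large part of it to be lost.

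Bcl2 had the smallest p under either inhibitor. It read 5694, 5704 and 5798 with the ORAI inhibitor and 5882, 5809 and 5890.2 with CsA, each above all restimulated libraries (5129.6, 4931 and 5034). The differences were small, 0.19 (adjusted p = 0.0379) and 0.22 (adjusted p = 0.0174), and below the fold threshold. Both means (5732 ± 57.2 with the ORAI inhibitor and 5860 ± 44.9 with CsA) lay near that of resting iTregs (5778 ± 394). Bbc3 also had no overlap with restimulated iTregs under either inhibitor (34.7, 46.6 and 28.1 and 44.0, 28.7 and 40.8, next to 25.2, 24.7 and 27.2), but on these few reads the adjusted p were 0.257 and 0.173. Bcl2l11 read 171, 208 and 158 with the ORAI inhibitor and 179, 166 and 199 with CsA, and both sets overlapped with those of restimulated iTregs. The remaining members had 95% intervals within 0.53 of 0 on the log2 scale in both comparisons.

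**Figure D4:**
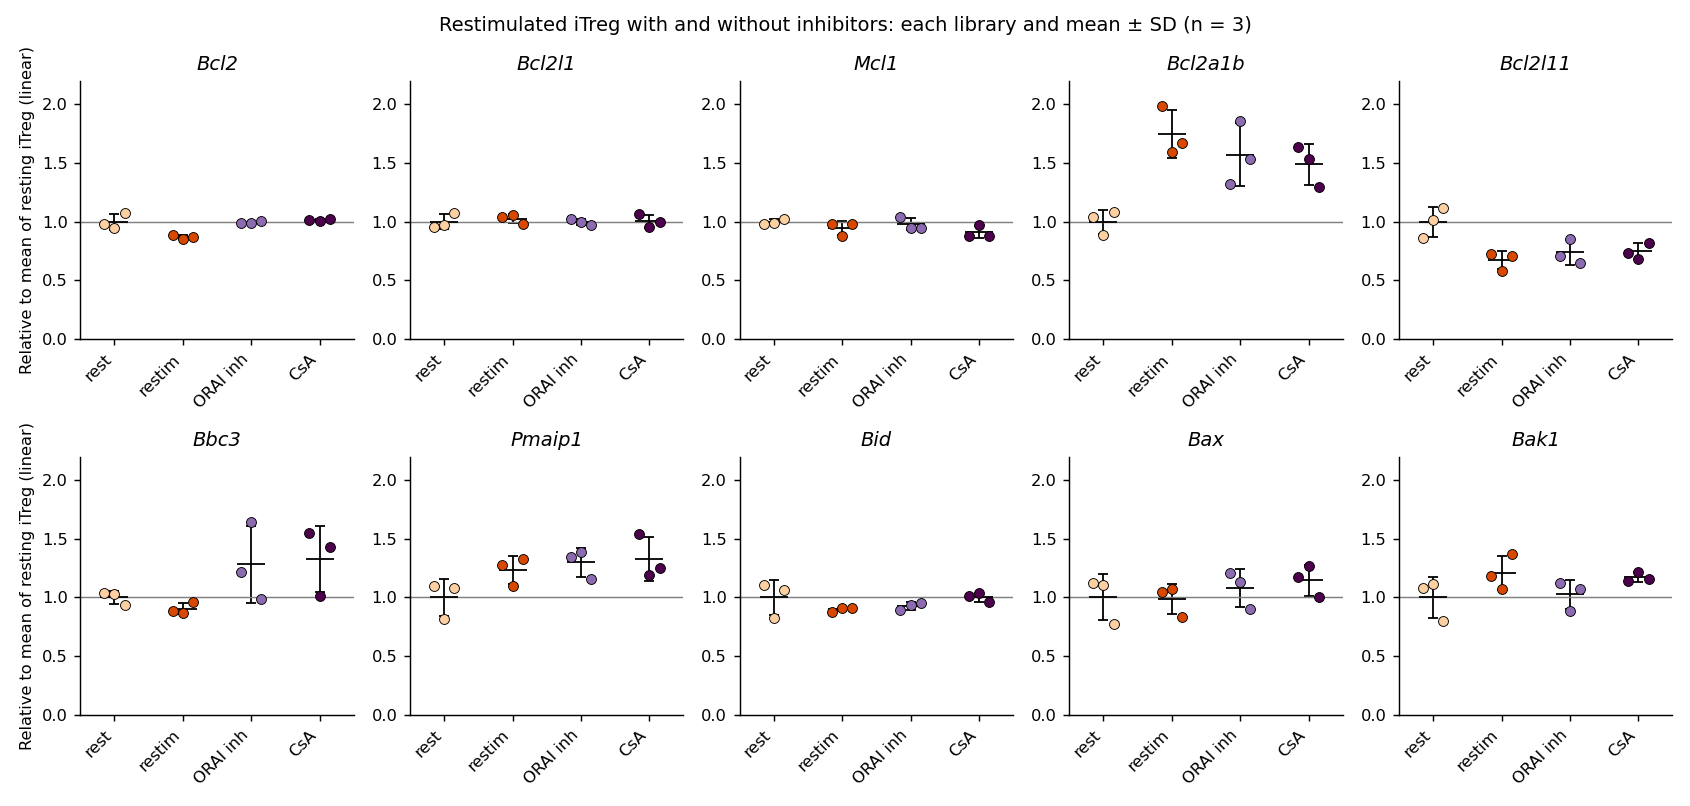
Normalized counts of the 10 genes in the 4 iTreg groups (rest, restimulated, with ORAI inhibitor, with CsA) relative to the mean of resting iTregs (linear axis, line at 1), as single libraries with mean and SD of 3. Bcl2a1b stands above 1 and Bcl2l11 below 1 in all 3 restimulated groups, and Bcl2l1 and Mcl1 lie near 1 throughout.

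The inhibitor groups were also set against resting iTregs, with which restimulated iTregs were compared as well, so these comparisons share their control libraries. With the ORAI inhibitor 1 of 10 members changed, where 7.10% of all genes tested changed (789 of 11105), and with CsA 1 of 10, where 9.43% did (1047 of 11105). The member was Bcl2a1b in both, higher by 0.64 (SE 0.158, adjusted p = 0.0117) with the ORAI inhibitor and by 0.57 (SE 0.158, adjusted p = 0.0173) with CsA. The first call was lost without the second replicates (0.42, adjusted p = 0.213), and the second without the first (0.52, adjusted p = 0.0891) or the second (0.46, adjusted p = 0.151). Bcl2l11 was below its resting level in every inhibitor library, at -0.44 (adjusted p = 0.0323) and -0.41 (adjusted p = 0.0335), and missed the fold threshold. Pmaip1 was above its resting libraries in both groups (382, 393 and 328 and 436, 338 and 354), at 0.39 and 0.41, and was called only without the third replicates (0.53 and 0.51).

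The inhibitors were compared with each other as well. They act at successive steps of the same route, on the channel and on calcineurin, and no dose was given in the sources used here, so the groups can be compared as labeled but not at matched doses. None of the 10 members differed, by limma, edgeR or DESeq2, and none reached an unadjusted p under 0.05, where 0.360% of all genes tested changed (40 of 11105). The 95% intervals ran from -0.14 to 0.08 for Bcl2, from -0.15 to 0.13 for Bcl2l1, from -0.05 to 0.25 for Mcl1 and from -0.27 to 0.41 for Bcl2a1b. They were -0.31 to 0.26 for Bcl2l11, -0.40 to 0.22 for Bax and -0.48 to 0.09 for Bak1, and widest for Bbc3, at -0.53 to 0.41. Of these intervals all but that of Bbc3 lay within the fold threshold of 0.5 on either side of 0, and they were narrowest for Bcl2, Bcl2l1 and Mcl1.

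Across all 8 groups the members had distinct orders of level. Bcl2 ranged 3.96-fold between its lowest and highest group means, with resting Tconvs (1478 ± 65.4) at the bottom and the other 7 groups between 4887 and 5860.4, where neighbors overlapped except between iTregs with the ORAI inhibitor and restimulated iTregs. Bcl2l1 ranged 8.52-fold, the most of any member, from resting Tconvs (196) through resting tTregs (556) and a cluster of activated tTregs and the 4 iTreg groups (from 823 to 905), whose neighbors overlapped, up to activated Tconvs (1671). Pmaip1 ranged 7.47-fold and split into the Tconv groups (50.3 and 60.2) and all Treg groups (from 254 to 376).

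Mcl1, Bcl2a1b and Bcl2l11 shared a different split, with the 4 iTreg groups at the bottom of each order. Mcl1 went from resting tTregs (1853) through activated Tconvs (1501), activated tTregs (1205) and resting Tconvs (1034), with no overlap between neighbors, to the iTreg groups (from 596 to 654), which overlapped. Bcl2l11 went from resting tTregs (934) down to restimulated iTregs (163), a range of 5.72-fold. Bid followed with a narrower range of 2.40-fold, from activated tTregs (442) to restimulated iTregs (184). Bax had the iTreg groups at the top instead, with all of them (from 1939.7 to 2260.2) above activated Tconvs (1186), and in each iTreg group the third library was the lowest. Bak1 was lowest in resting Tconvs (41.1) and between 132 and 231 elsewhere. Bbc3 was highest in activated tTregs (70.7) and lowest in activated Tconvs (17.4), with all neighbors overlapping except the lowest pair.

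Levels were compared between genes only after division by the exon length in the annotation, as normalized counts per kilobase. In resting Tconvs Bax stood highest by this measure (416), followed by Mcl1 (302), Bcl2a1b (268) and Bcl2 (162), and the survival gene Bcl2l1 was at 42.8. In activated Tconvs Bcl2 (543) stood above Mcl1 (439), and Bcl2l1 had moved up to 364. In resting tTregs Mcl1 (542), Bcl2 (535) and Bax (503) were close together. In resting iTregs Bax (1249) and Bcl2 (631) stood well above Mcl1 (192) and Bcl2l1 (180), and Pmaip1 (104) stood above Bcl2l11 (30.2), whereas in resting Tconvs Bcl2l11 (88.4) stood above Pmaip1 (18.4). The order among genes depended on whether all exons or the longest coding transcript set the length, as for Mcl1 and Bax in resting tTregs. By the longest coding transcript Bcl2l1 stood above Mcl1 in activated Tconvs (650.5 against 439) and in resting iTregs (321 against 192), the reverse of the order above.

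Exons of 5 members overlap another annotated gene, which matters because the kit does not mark strand. Bcl2a1b is the most affected, with 49.1% of its exon bases also in Gm29094 on the same strand, which read from 0 to 18.1 normalized counts. Bak1 shares 25.5% with Ggnbp1 on the opposite strand (from 1.35 to 14.3), Bid 17.7% with Bcl2l13 on the opposite strand (from 536 to 845), Bax 12.2% with Gm45808 on the same strand (from 0 to 9.11) and Bcl2 6.09% with D630008O14Rik on the opposite strand. Reads in the shared bases cannot be told apart by strand, so the Bid values in particular may hold reads of an abundant neighbor.

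The wider pathway was followed through gene lists, described by their counts. On activation of Tconvs, where 50.2% of all genes tested changed, 9 of 17 genes of mitochondrial release and caspases changed, 8 higher and 1 lower. Cycs, the gene of cytochrome c, went from 904 to 2656 normalized counts (log2 fold change 1.56), and the mitochondrial channel gene Vdac1 (1.33) was higher too. Of the other BCL2 family genes 5 of 10 tested changed, 2 higher and 3 lower, among them the BH3-only gene Bmf (-2.07) and the mitophagy receptor gene Bnip3l (-0.95), both lower, and Bcl2l12 (1.28), higher. In the death receptor list 7 of 11 changed, 4 higher and 3 lower, with Tnf (3.91), Ripk3 (2.25) and Fas (1.23) higher and Fasl (-1.66) and Cflar (-0.86), the gene of the caspase-8 inhibitor FLIP, lower. Of 15 transcription factors known to act on the family 8 changed, 6 higher and 2 lower, with Myc (3.19), Stat5a (2.18) and Nfkb1 (1.10) higher and Foxo3 (-0.71), a known activator of Bcl2l11, lower. Of the inhibitors of apoptosis proteins 3 of 6 changed, 1 higher and 2 lower, and of the genes for turnover of MCL1 and NOXA protein 1 of 7 changed, lower.

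On activation of tTregs, where 21.9% of all genes tested changed, the counts were lower than in Tconvs for the lists as for genes at large. In the caspase list 2 of 17 were higher, among them Htra2 (0.93), the gene of a mitochondrial protease. The death receptor list gave 3 of 11, 2 higher and 1 lower, with Ripk3 higher (0.94), and the transcription factor list 5 of 15, 4 higher and 1 lower, with Rel (0.69) higher and Foxo1 (-0.71) lower. Other BCL2 family genes gave 1 of 10, higher, the inhibitors of apoptosis proteins 1 of 6, the cell cycle gene Birc5 (3.05), and the turnover list 0 of 7 by limma, edgeR or DESeq2, with 2 of its genes at an unadjusted p under 0.05.

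In resting iTregs against resting Tconvs 63.6% of all genes tested changed, which the counts of the lists are to be read against. The caspase list gave 13 of 17, 11 higher and 2 lower. Bnip3, a mitophagy receptor gene known as a target of hypoxia signaling, was at 4863 against 182 normalized counts (log2 fold change 4.74), and the other BCL2 family genes gave 8 of 10, 5 higher and 3 lower. The inhibitors of apoptosis proteins gave 6 of 6, of which 5 were lower and only Birc5, a gene of dividing cells as well as an inhibitor of apoptosis, was higher (8.43). The death receptor list gave 5 of 11, 3 higher and 2 lower, with Ripk3 (3.03) higher and Cflar (-1.48) lower. The transcription factors gave 10 of 15, 6 higher and 4 lower, with Myc (3.70) and Hif1a (1.99) higher and Rel (-1.81), the NF-κB subunit that acts on the A1 and BCL-XL genes, lower, and the turnover list gave 2 of 7, both lower.

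On restimulation of iTregs, where 12.8% of all genes tested changed, some genes of the lists had larger log2 fold changes than the members called. Bcl2l14, a BCL2 family gene, read 37.9, 14.1 and 20.5 in resting and 139, 149 and 119 in restimulated iTregs (2.55, adjusted p = 5.15e-06), and it was the only 1 of 11 other BCL2 family genes tested that changed. Fasl, the Fas ligand gene and a known NFAT target, read 32.7, 43.4 and 60.7 and 168, 151 and 173 (1.87, adjusted p = 5.83e-06), and its receptor gene Fas was higher as well (0.58), so that the death receptor list gave 3 of 11, 2 higher and 1 lower. Casp6 (0.60) was the only caspase list gene to change, of 17. Stat3 (0.82) was higher and Atf4 (-0.60) and Trp73 (-1.10) were lower among the 15 transcription factors, and the turnover list gave 1 of 7, Btrc (0.65). Of the 5 inhibitors of apoptosis proteins tested 0 were called by limma, edgeR or DESeq2, although all 5 had an unadjusted p under 0.05.

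Under the inhibitors Fasl and Bcl2l14 were called lower, where 3.30% (ORAI inhibitor) and 2.92% (CsA) of all genes tested changed. Fasl read 62.2, 64.3 and 56.2 with the ORAI inhibitor and 88.9, 60.6 and 66.4 with CsA, against 168, 151 and 173 without, at -1.42 (adjusted p = 0.000384) and -1.19 (adjusted p = 0.00182). Bcl2l14 read 66.3, 72.2 and 53.5 and 76.7, 69.8 and 54.4, against 139, 149 and 119, at -1.08 (adjusted p = 0.0214) and -1.02 (adjusted p = 0.0298). With the ORAI inhibitor Bnip3 (-0.75), Bnip3l (-0.55) and Tnfsf10 (-0.57), the gene of the death ligand TRAIL, were lower too, and with CsA the stress gene Ddit3 was higher (0.56). In all, the ORAI inhibitor changed 3 of 11 other BCL2 family genes and 2 of 11 death receptor genes, and CsA changed 1 of 11 in each. The caspase, apoptosis inhibitor and turnover lists gave 0 changed genes under either inhibitor by limma, edgeR or DESeq2, with 4, 1 and 1 genes at an unadjusted p under 0.05 for the ORAI inhibitor and 5, 3 and 1 for CsA. Among the 15 transcription factors 0 changed with the ORAI inhibitor by any of these tools, with 7 at an unadjusted p under 0.05. Between the inhibitors only Atf4 differed among the listed genes, lower with the ORAI inhibitor (-0.61, adjusted p = 5.96e-05).

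**Figure D5:**
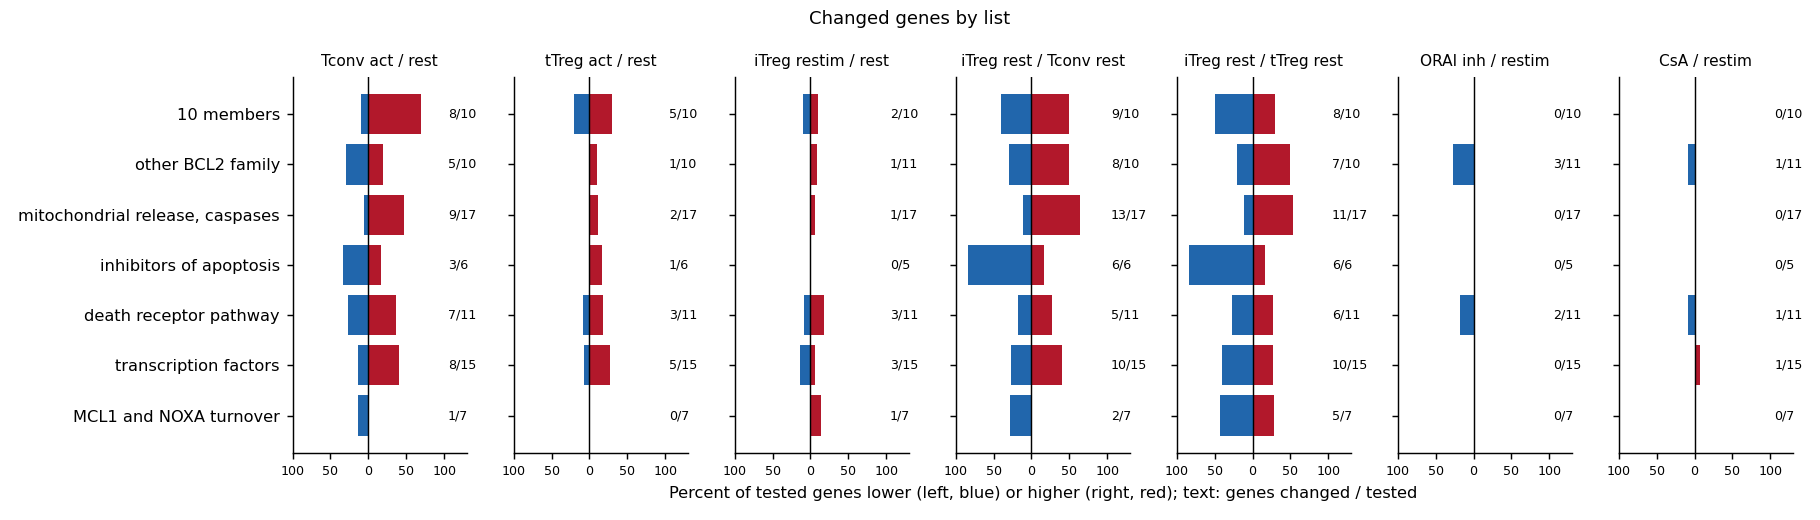
Percent of the tested genes of each list called higher (right) or lower (left) in 7 comparisons, with the number changed of the number tested. The members range from 9 of 10 changed between resting iTregs and resting Tconvs to 0 of 10 under either inhibitor. The death receptor genes range from 7 of 11 on activation of Tconvs to 1 of 11 with CsA. The share of all genes tested that changed was 63.6% between resting iTregs and resting Tconvs and 50.2% on activation of Tconvs. It was 3.30% with the ORAI inhibitor and 2.92% with CsA.

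The genes whose pattern over the 24 libraries was most like that of a member were found by Pearson's r of log2 values, among the 9157 genes that reached 100 normalized counts in 3 or more libraries. These values describe 24 libraries of 8 groups that share their populations, and no p is given. Il2ra (r = 0.983) was closest to Bcl2 and Wars (0.984) to Bcl2l1. Usp47 (0.966) was closest to Mcl1, Trim12c (0.960) to Bcl2a1b, Elk4 (0.988) to Bcl2l11 and Cpd (0.979) to Pmaip1. Calm3 (0.979) was closest to Bax, Csrp1 (0.972) to Bak1 and Ifnar1 (0.971) to Bid. Among the members themselves r was 0.93 between Bcl2l11 and Mcl1, 0.92 between Bcl2 and Bak1 and -0.91 between Bcl2l11 and Bax.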

How the data were processed

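RNA was sequenced from sorted CD4+ T cells with the SMART-seq2 protocol, which does not mark strand, in 24 libraries in 8 groups of 3. The authors trimmed reads with cutadapt 1.18, aligned them to mm10 with STAR 2.5.3, and counted them per gene with RSEM 1.3.0 on a GENCODE annotation. DESeq2 1.26 is also in their processing notes, and what scaled the matrix was not given in the sources used here. The deposited matrix holds a signal value per gene and library, the gene count divided by a single size factor for each library. Nearly all low values were whole multiples of the value of 1 read, and at a tolerance of 0.01 reads 100% of values came out whole, so whole reads were recovered (between 5256800 and 15685234 per library). A count of 3 reads corresponds to between 2.12 and 5.45 normalized counts. This floor covers counting error only.

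Here, values were tested as log2(normalized count + 1) with limma 3.58.1 (trend) in R 4.3.3, over genes that reached 10 normalized counts in 3 or more libraries, with Benjamini-Hochberg adjustment over all genes of the fit. Tconvs, tTregs and resting iTregs were fitted together (15 libraries, 11495 genes), the 4 iTreg groups together (12 libraries, 11105 genes), and all 24 libraries for comparisons across these sets (11725 genes). Fold changes are on the scale of the value plus 1, which understates changes of low genes. Intervals are limma's at 95% and rest on the spread between libraries. The limma step was tested on simulated counts with 200 changed genes. For activation of Tconvs (11165 genes) it called 98 of 100 genes changed 2-fold and 86 of 100 changed less, with 7 false calls. For restimulation of iTregs (11022 genes) the numbers were 95, 82 and 12. The simulation gave every gene and group the same spread, changed few genes, and left low genes unchanged. It checks the code and does not give the recovery to expect in the more variable tTreg libraries or for low genes such as Bbc3.

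Alternatives were edgeR 4.0.16 (quasi-likelihood) and DESeq2 1.42.0 on recovered reads, other pseudocounts, filters and scalings, a replicate block, other sets of libraries, and leaving out each replicate number in turn in all groups of the fit. The members and the lists were chosen with earlier results of these data known. From each list, genes past both thresholds without overlap of libraries were named, at most 5 a comparison by size of change. Pattern likeness was taken among genes reaching 100 normalized counts in 3 or more libraries. Promoters came from RefSeq (GRCm38.p6) and exon positions from GENCODE on GRCm38, of an older release than that of the authors. The chromatin samples of the series were not used here. Some genes of the lists, of the markers and of the pattern search are not reported here by name. Figures were drawn with matplotlib 3.10.9 in Python 3.11.15.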

Additional observations from a re-analysis of the deposited data

Results flagged for a closer look

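The size of the response to stimulation differed between populations in 17 cases by a test of the difference itself (limma, adjusted over all genes). Of all genes tested 34.7% differed for tTregs against Tconvs, 44.2% for iTregs against Tconvs and 21.3% for iTregs against tTregs. For activation in tTregs minus activation in Tconvs, the log2 differences were -2.38 for Bcl2l1, -1.76 for Bcl2, -1.28 for Bak1, -1.17 for Mcl1, -0.95 for Bcl2a1b and -0.54 for Bcl2l11, and 1.72 for Bbc3. The survival genes Bcl2l1 and Bcl2 thus had smaller responses in tTregs, and Mcl1 and Bcl2a1b had opposite signs. The adjusted p ran from 4.45e-09 for Bcl2l1 to 0.0113 for Bcl2l11. The Bcl2l11 difference was lost without the first or the second replicates, and the Bak1 difference without the second.

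For restimulation of iTregs minus activation of Tconvs, the differences were -3.05 for Bcl2l1, -1.95 for Bcl2, -1.55 for Bak1, -0.85 for Bax, -0.68 for Bid and -0.62 for Mcl1, and 1.21 for Bbc3. The adjusted p ran from 4.29e-15 for Bcl2l1 to 0.0057 for Bax. The Bax difference was lost without the first or the second replicates. Resting iTregs had been stimulated for 4 days before, and resting Tconvs had not, and the length of the second stimulus was not given in the sources used here, so the populations and their histories cannot be told apart.

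For restimulation of iTregs minus activation of tTregs, the differences were 1.22 for Bcl2a1b, -0.66 for Bcl2l1 and 0.54 for Mcl1. Those of Bcl2l1 and Mcl1 were lost without the third and without the first replicates. Groups of 3 libraries were too small for a search for single outlying libraries.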

How the results depend on the processing

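Over the members, comparisons and alternatives 2474 log2 fold changes were recomputed. No called member changed sign in any of them, 2425 kept their call, 39 lost it and 10 gained it, while 52 changed sign without being called either way. Of the 39 losses, 10 came without the first replicates, 12 without the second, 7 without the third and 5 after quantile normalization. Pseudocounts of 0.1 and 5 and edgeR changed no member's call. Summing the A1 copies, an alternative chosen after the data were seen, ended 1 call. Quantile normalization moved the median of all genes by more than 0.1 in resting iTregs against resting Tconvs (from 0.02 to -0.12), resting tTregs (to -0.10) and activated Tconvs (to -0.11), and in restimulated iTregs against activated Tconvs (to -0.11).

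Members called between activated and resting tTregs numbered 3 when these groups were fitted alone. A filter of 100 normalized counts removed Bcl2a1b and Bbc3 from the iTreg fit and left 1 member and 878 genes on restimulation, 0 members and 479 genes for the ORAI inhibitor against resting iTregs, 0 members and 654 genes for CsA against resting iTregs, and 213 genes for CsA against restimulated iTregs. With all 24 libraries in the fit the ORAI inhibitor changed 232 genes, CsA 187, and 10 differed between them. Without 1 replicate number the counts ran from 1 to 2 members on restimulation of iTregs, from 170 to 324 genes for the ORAI inhibitor and from 124 to 296 for CsA against restimulated iTregs, from 4 to 41 between the inhibitors, from 0 to 2 members for each inhibitor against resting iTregs, and from 1520 to 2241 genes for iTregs against tTregs in their response.

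Same-numbered libraries deviated together weakly on average (mean r = 0.107 over 18 pairs within the iTreg groups, 8 of them over 0.1, and 0.0147 over 66 other pairs). The third libraries of the iTreg groups did so in all their pairs, at r from 0.147 to 0.238. Replicate numbers were not taken as a pairing in the main fits, so any such pairing was left out of them. With the replicate number as a block, 1425 genes on restimulation became 1500. Against restimulated iTregs, 366 genes became 420 for the ORAI inhibitor and 324 became 372 for CsA. Against resting iTregs, 789 became 917 for the ORAI inhibitor and 1047 became 1143 for CsA, and 40 became 51 between the inhibitors. Bax was added to the members whose response differed between iTregs and tTregs, which then numbered 4 (-0.54, adjusted p = 0.0391). The block changed no other call of a member. Depth limits Bbc3 most, at 18 to 59 reads a library.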
